A study of Mus musculus with 4 samples.

Results

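The genes described here encode 7 transcription factors of intestinal identity: the caudal-type homeobox factors Cdx1 and Cdx2, the nuclear receptors Hnf4a and Hnf4g, the zinc finger factors Gata4 and Gata6, and the Krüppel-like factor Klf5. They were taken by name, as 7 of 21410 autosomal protein-coding genes of the GENCODE M1 annotation (mm9). The rule uses names alone, but it was set with earlier results of these data known. CpG methylation of each gene was read in 200-bp bins from 5 kb upstream of its first annotated base to its end. These stretches held 1995 bins and 4729 CpGs, and 822 bins held 2 or more CpGs with 10 or more calls per library (1020 with any CpG), where a call is 1 read of 1 CpG cytosine.

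The study measured CpG methylation by whole-genome bisulfite sequencing (WGBS) in colonic epithelium of newborn mice (P0) and of mice at the end of suckling (P21). Lgr5-EGFP-CreER mice, in which the regulatory sequences of the stem cell gene Lgr5 drive EGFP and Cre recombinase, were crossed with wild-type C57 mice. Intestinal stem cells (ISCs) were sorted as Lgr5-EGFP-positive cells, and differentiated cells as EpCAM-positive, Lgr5-EGFP-negative cells. No other allele and no treatment was used in these samples. Each of the 4 groups, the ISCs and the differentiated cells of either age, was 1 library from pooled animals, litters at P0 and reporter-carrying offspring at P21. Whether the P0 litters were selected for carriers is not given in the sources used here. ISCs that carry no reporter, or do not express it, fall in the EGFP-negative gate, so the differentiated libraries may hold some stem cells.

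CDX1 and CDX2 specify the posterior gut during development and keep the epithelium intestinal in the adult. HNF4A and HNF4G bind enhancers of enterocyte genes for lipid uptake and the brush border. GATA4 marks the proximal small intestine and is normally little used in the colon, whereas GATA6 acts along the whole gut, and KLF5 is a factor of the dividing crypt. Methylated CpGs are the usual state of a mammalian genome, and active or poised promoters and enhancers are held free of methylation, those of developmental regulators often over several kilobases.

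The libraries held between 1023427645 and 1188114423 calls, and the median of calls in a bin of the 7 genes was 66 and 98 at P0 and 73 and 90.5 at P21 (each time ISCs first, then differentiated cells). Promoter methylation at marker genes was read as a check of the labels. All 6 epithelial markers (Epcam, Cdh1, Krt8, Krt19, Vil1 and Cdh17) had promoter levels between 0% and 23.9%, and all 6 immune markers between 62.1% and 86.8%, in every library. Of 7 stromal, endothelial and muscle markers, 2 endothelial ones were at 66.1% to 83.7% and the other 5 at 1.02% to 45.9%. The stem cell genes Lgr5, Ascl2 and Olfm4 did not separate the populations, with Lgr5 at 5.62% and 4.26% in ISCs (P0, P21) and at 6.18% and 9.50% in differentiated cells. These promoters do not test the purity of the sorted cells, because those of the stromal genes Pdgfra and Col1a2 were as low as the epithelial ones. Since a level averages over the cells of a pool, a change within cells and a change in the mix of cells cannot be told apart. With 1 library a group there is no replicate check, and every interval below covers counting error only. The intervals and the test treat each call as separate, although 1 read can cover several CpGs of a bin. Where calls share a read, or reads are PCR copies of a molecule, the intervals are too narrow and the adjusted p-values too small.

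Between P0 and P21 the 7 genes lost methylation at more bins than they gained it, in both populations. A bin was called when Fisher's exact test on the calls of the 2 libraries gave an adjusted p below 0.05 and the levels differed by more than 15 percentage points. The test compares the 2 libraries and not the conditions. In ISCs, 45 of the 822 bins were lower at P21 (5.47%, against 1.48% of all 4076373 autosomal bins) and 10 were higher (1.22%, against 1.07%). In differentiated cells, 48 bins were lower (5.84%, against 1.86% of all bins) and 6 higher (0.730%, against 0.992%). Bins of the 7 genes held more calls than the median of all bins (55 and 81 at P0, 58 and 68 at P21), which makes a call easier to reach. By the 15-point difference alone, with no test, 12.9% of their bins were lower in ISCs against 7.14% of all bins, and 11.1% against 7.08% in differentiated cells. The share of bins that lost methylation thus stood above that of all bins in both populations, while the share that gained it was near the share of all bins. The bins of the 7 genes that were lower at P21 in ISCs went from a median level of 53.1% to 14.7%, and those lower in differentiated cells from 43.1% to 11.01%.

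The comparisons of the 2 populations between ages have no library in common. The paper gives the pooling of animals by age and not by cell population. The ISC and differentiated libraries of an age may therefore stem from the same mice. A difference between the pools of the 2 ages could then shift both populations alike, which was not tested. Bins lower in both populations may for this reason not be independent evidence. Of the 45 bins lower at P21 in ISCs, 26 were also called lower in differentiated cells (57.8% of the ISC losses and 54.2% of the 48 losses in differentiated cells), and 44 of 45 had a lower level there. Over all autosomal bins, 27417 losses were called in both, which is 45.4% of the ISC losses and 36.1% of those in differentiated cells, and 88.3% of the ISC losses had a lower level there. Loss in both populations was therefore common in the genome as a whole, and whether the shares of the 7 genes differ from these was not tested. No bin was called in opposite directions. Of the 10 gains in ISCs, 0 were called in differentiated cells and 9 had a higher level there, where over all bins 23.75% of the ISC gains were called and 78.7% had a higher level. With 10 gains these counts are too few to be set apart from the shares of all bins. All 94 tested bins within CpG islands (CGIs, regions in which 500-bp windows held at least 25 CpGs) were without a call in every comparison. Among 150844 autosomal CGI bins 1.77% were called between the ages in ISCs and 1.54% in differentiated cells, so 94 bins would hold few calls at those shares.

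**Figure D1:**
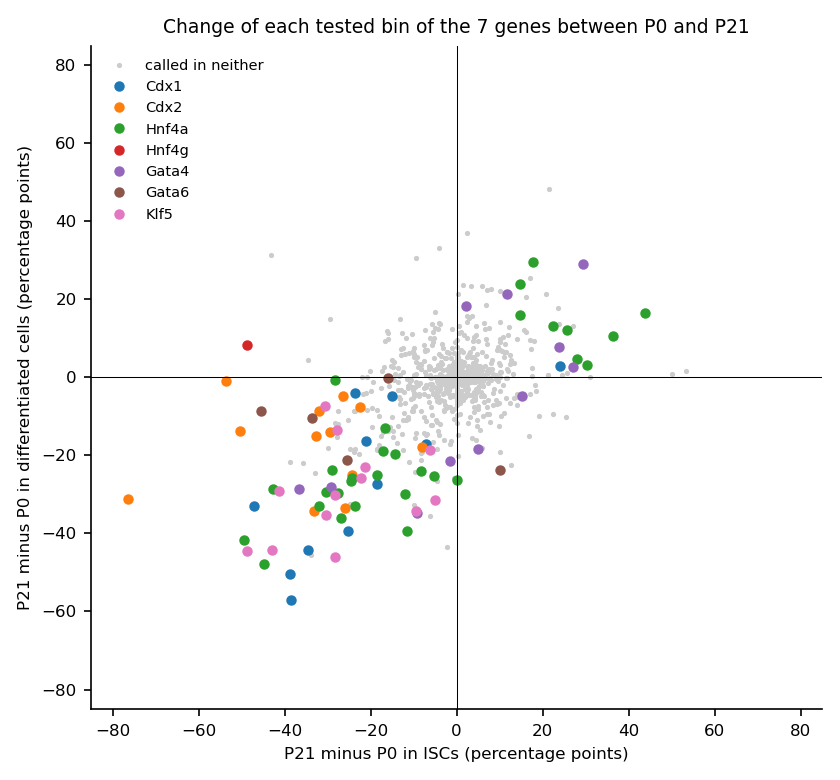
Difference in CpG methylation level between P21 and P0 for each of the 822 tested bins of the 7 genes, in ISCs (x axis, percentage points) against differentiated cells (y axis, percentage points). Coloured points are bins called in at least 1 population and grey points bins called in neither. Most coloured points lie at the lower left, lower at P21 in both populations, and the point of Hnf4g lies alone at the upper left.

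The 7 genes did not change alike. Of the tested bins, 9 of 45 of Cdx2 (20%) and 10 of 63 of Klf5 (15.9%) were lower at P21 in ISCs, followed by 7 of 81 of Cdx1 (8.64%), 13 of 213 of Hnf4a (6.10%), 4 of 104 of Gata6 (3.85%), 1 of 95 of Hnf4g (1.05%) and 1 of 221 of Gata4 (0.453%). In differentiated cells the order was Klf5 with 11 (17.5%), Cdx1 with 8 (9.88%), Hnf4a with 19 (8.92%), Cdx2 with 4 (8.89%), Gata4 with 5 (2.26%), Gata6 with 1 (0.962%) and Hnf4g with 0. Among the 12850 autosomal genes with at least 40 tested bins, the median share of lower bins was 1.14% in ISCs and 1.49% in differentiated cells. Of these genes 32, Cdx2 included, reached the share of Cdx2 in ISCs, and 53 and 63 that of Klf5 in ISCs and in differentiated cells. Gata4 and Hnf4g stood under the median in ISCs. The gains in ISCs fell to Hnf4a (6 bins, 2.82%), Gata4 (3, 1.36%) and Cdx1 (1, 1.235%), against 1.07% of all bins. Those in differentiated cells fell to Hnf4a (3, 1.41%) and Gata4 (3, 1.36%), against 0.992% of all bins.

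**Figure D2:**
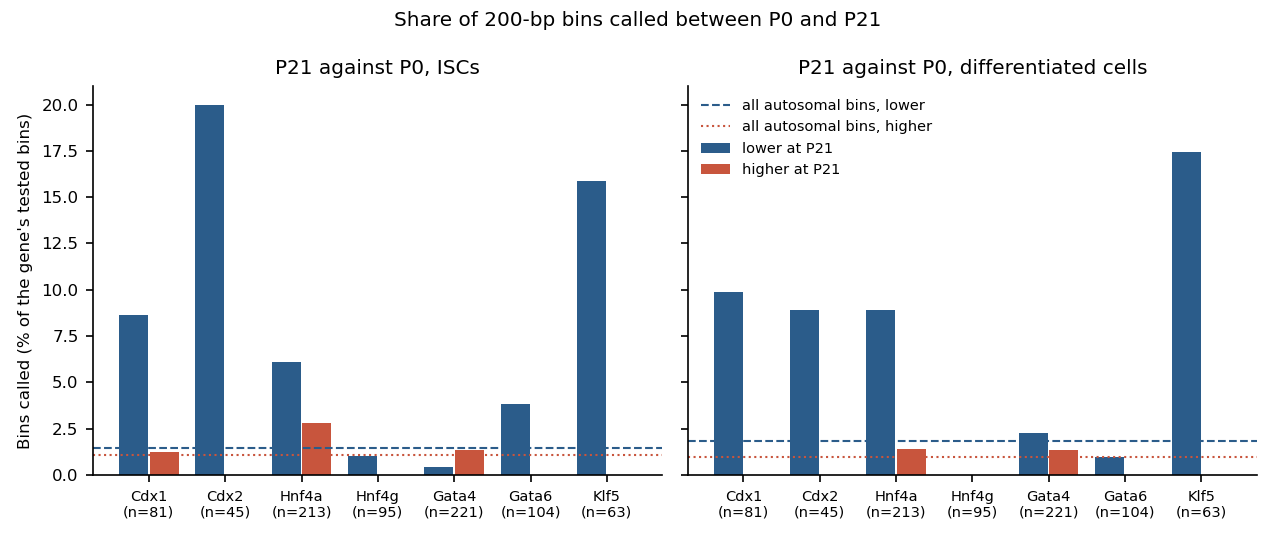
Bins called lower (blue) or higher (red) at P21 than at P0, in percent of each gene's tested bins (n under the name), in ISCs (left) and differentiated cells (right). The horizontal lines are the shares among all autosomal bins, 1.48% lower and 1.07% higher in ISCs, 1.86% and 0.992% in differentiated cells. The bars of Cdx1, Cdx2, Hnf4a and Klf5 stand above the line for lower bins in both panels.

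The bin of lowest adjusted p in ISCs that holds no untranslated region is printed for 4 of the genes, because the levels of its single CpGs show what a called bin consists of. All sequences are from mm9, read 5′ to 3′ on the strand of the gene, with every CpG in capitals. The bin of Hnf4a lies in intron 1 (chr2:163373201-163373400, plus strand, 7 CpGs), that of Klf5 in intron 3 (chr14:99709401-99709600, plus strand, 9 CpGs), that of Gata4 in intron 2 (chr14:63837001-63837200, minus strand, 6 CpGs) and that of Cdx2 upstream of the gene (chr5:148120001-148120200, minus strand, 4 CpGs). The called bin of Hnf4g overlaps an untranslated region.
Hnf4a intron 1: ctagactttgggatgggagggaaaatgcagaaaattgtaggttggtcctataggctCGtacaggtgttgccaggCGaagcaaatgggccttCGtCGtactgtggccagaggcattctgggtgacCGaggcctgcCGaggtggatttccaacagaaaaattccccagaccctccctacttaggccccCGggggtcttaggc
Klf5 intron 3: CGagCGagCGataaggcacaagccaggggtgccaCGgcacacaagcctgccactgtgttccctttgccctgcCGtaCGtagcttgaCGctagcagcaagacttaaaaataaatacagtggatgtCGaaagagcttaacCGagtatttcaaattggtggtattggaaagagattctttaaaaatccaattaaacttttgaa
Gata4 intron 2: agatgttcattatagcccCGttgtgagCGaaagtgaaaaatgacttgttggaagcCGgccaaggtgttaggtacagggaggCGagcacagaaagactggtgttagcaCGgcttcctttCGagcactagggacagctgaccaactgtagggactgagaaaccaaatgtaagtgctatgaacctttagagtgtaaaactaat
Cdx2 upstream: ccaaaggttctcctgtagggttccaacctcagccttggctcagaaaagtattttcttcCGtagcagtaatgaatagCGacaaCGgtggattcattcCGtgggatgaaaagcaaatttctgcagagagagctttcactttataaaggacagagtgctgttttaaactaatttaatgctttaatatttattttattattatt

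In the Hnf4a bin the 7 CpGs were at 28.0% to 73.9% in ISCs at P0 and at 28.1% to 64.7% in differentiated cells at P0. At P21, 6 of the 7 CpGs of ISCs and 5 of the 7 of differentiated cells had 0 methylated calls, and the highest single level was 4.76%. In the Klf5 bin, 8 of the 9 CpGs were at 28.6% to 64.3% in ISCs at P0 and at 0% to 34.6% at P21, while the seventh was at 13.9% and 7.32%. The seventh was also the lowest in differentiated cells at P0, at 2.44%. In the Gata4 bin the third CpG was the highest in every library. It stood at 90.7% and 73.5% in ISCs (P0, P21) and at 90.0% and 81.4% in differentiated cells, and the other 5 went from between 32.1% and 72.7% to between 13.95% and 24.4% in ISCs. In differentiated cells these 5 went from between 25.6% and 67.8% to between 5.56% and 24.3%. In the Cdx2 bin the 4 CpGs of ISCs went from 64.5% to 75% at P0 to 16.7% to 21.4% at P21, and those of differentiated cells from 54.5% to 79.0% to 45.5% to 54.3%. Single CpGs had 13 to 59 calls in a library, so their levels are less precise than those of the bins.

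Short motifs of the factor families were searched on both strands in the 67 bins of the 7 genes that were lower at P21 in at least 1 population. AGATAA, the core read by GATA factors, was in 5 of them (7.46%), against 8.64% of the 822 tested bins of these genes and 9.95% of all autosomal bins. TTTATG, a core of caudal factors, was in 1 (1.49%, against 7.54% and 11.2%), CAAAGTNCA, the repeat read by HNF4, in 1 (1.49%, against 1.34% and 0.895%), and GGGNGNGG, a GC box read by Krüppel-like factors, in 9 (13.4%, against 23.6% and 16.4%). Among the 108849 autosomal bins lower in at least 1 population, the shares were 11.2% for AGATAA, 12.5% for TTTATG, 2.03% for CAAAGTNCA and 17.5% for GGGNGNGG, each above the share in the 67 bins. The shares in the 67 bins rest on 1 to 9 bins each, and their differences from the other shares were not tested. Matches of different motifs were counted separately and may overlap. None of the 4 motifs is in the printed bins.

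Hnf4a, on chromosome 2 from 163332544 to 163398646, has several annotated start sites, which ranged from low to high methylation. Its main start, taken as that of the transcript with the longest coding sequence, is at 163372924 and holds no CGI bin. The region within 1 kb of it had a mean level of 40.6% ± 2.90 (95% counting error) at P0 and 22.7% ± 2.30 at P21 in ISCs, and of 38.8% ± 1.94 and 24.0% ± 1.61 in differentiated cells. Both P21 libraries were below both P0 libraries. The difference was -17.9 percentage points in ISCs (counting interval -21.6 to -14.2) and -14.8 in differentiated cells (-17.4 to -12.3), among the lowest 1.08% and 1.54% of 20556 gene promoters.

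Within Hnf4a, the longest run of bins lower at P21 in ISCs lay just downstream of the main start. In 3 adjacent bins of intron 1 (chr2:163373201-163373800, 22 CpGs, the first being the printed one) ISCs went from 35.1% of 513 calls to 1.33% of 600 calls, and differentiated cells from 32.1% of 951 calls to 2.08% of 816 calls. Further into intron 1, the bins at chr2:163375601-163376200 (11 CpGs) went from 49.1% to 8.91% in ISCs and from 49.3% to 8.42% in differentiated cells. The span of tested bins below 20% around the main start was 400 bp wide at P0 and 2600 bp wide at P21, in both populations. With a limit of 10% the P0 widths were 200 bp in ISCs and 400 bp in differentiated cells, and with 30% they were 800 bp and 400 bp, against 2200 bp and 2600 bp at P21 in both. Of the losses of Hnf4a, 3 of 13 in ISCs and 5 of 19 in differentiated cells lay inside the P21 span. The P21 span also joins bins that were not called, so its added width is not all called loss. A further 7 losses in ISCs and 10 in differentiated cells lay more than 2 kb from this span. A pair of bins in intron 8, 20476 bp from the main start, went from 60.8% to 36.8% in ISCs and from 52.2% to 23.9% in differentiated cells, and a bin at -39024 bp from the main start went from 29.1% to 4.82% and from 30.4% to 4.60%. In both named stretches of intron 1, each read as a whole, the ISC and the differentiated library of the same age were within a few percentage points of each other.

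The first annotated start of Hnf4a, at 163332544, where the transcripts with the upstream promoter begin, was low in every library (16.6% and 19.2% at P0, 16.8% and 16.4% at P21) and had no called bin within 1 kb. Called losses lay just outside on both sides. Upstream, the pair of bins at chr2:163330801-163331200 went from 36.6% to 15.6% in ISCs and from 33.8% to 15.2% in differentiated cells, where 1 of the pair was called, and downstream lies the bin named above at -39024 bp from the main start. A start at 163362755 was high in every library (79.9% and 79.0% at P0, 79.5% and 85.3% at P21). A short transcript starting at 163375819, inside intron 1, lay in the stretch that lost methylation, with 38.3% and 40.3% at P0 and 15.01% and 12.7% at P21. Of the 6 bins of Hnf4a that were higher at P21 in ISCs, 5 lay between the first start and the main start. The one with the lowest adjusted p, at chr2:163339601-163339800, went from 17.4% to 61.2% in ISCs (Fisher's exact test between the 2 libraries, adjusted p = 2.15e-08) and stood at 41.8% and 58.3% in differentiated cells, where it was not called. The sixth of these ISC gains lay upstream of the first start, in the protein-coding gene R3hdml (163318054 to 163328348). A processed transcript on the opposite strand (0610008F07Rik, 163319543 to 163367456) spans the first start and part of the stretch between the starts. All 6 ISC gains lie within it, as do the losses beside the first start. A U6 snRNA (163340252 to 163340354) lies inside 1 of these gains, at chr2:163340201-163340400.

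Cdx2, on chromosome 5 from 148112381 to 148118846, kept its promoter low and changed on either side of it. Its promoter level in ISCs was 6.62% ± 2.44 at P0 and 2.75% ± 2.17 at P21, and in differentiated cells 6.37% ± 1.995 and 6.21% ± 2.13. Upstream, the mean of 11 bins went from 45.3% to 20.5% in ISCs (-24.7 points, interval -30.4 to -19.1) and from 48.3% to 27.1% in differentiated cells (-21.2, -26.2 to -16.2). These were among the lowest 0.332% and 0.534% of changes of 20794 upstream regions. The longest run of bins lower in ISCs at P21 was 4 bins over intron 2 and the start of exon 3 (chr5:148113201-148114000, 23 CpGs), and here the populations parted: ISCs went from 55.4% of 296 calls to 18.2% of 456, and differentiated cells from 30.3% of 823 to 23.1% of 741. The ISC library at P0 was the highest of the 4 and the ISC library at P21 the lowest.

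The last exon of Cdx2 as a whole had the same order at P0, with ISCs at 31.9% ± 3.49 and differentiated cells at 20.5% ± 2.74, and the P21 libraries, at 11.5% ± 2.69 and 12.8% ± 2.27, overlapped within counting error. A single bin in intron 2 (chr5:148114201-148114400) had the largest loss of any called bin of the 7 genes, from 83.3% of 18 calls (60.8 to 94.2) to 6.90% of 29 calls (1.91 to 21.96) in ISCs, so its size is imprecise. In differentiated cells it went from 48.3% to 17.2% and was not called. In the printed upstream bin, ISCs went from 69.4% (61.2 to 76.6) to 19.1% (11.5 to 30.01) and differentiated cells from 65.0% (55.3 to 73.6) to 51.2% (42.6 to 59.6). The bin beside it (chr5:148120201-148120400) was lower in both, from 47.5% to 14.3% in ISCs and from 52.5% to 18.2% in differentiated cells. The longest run lower in differentiated cells, a pair of bins at -2154 bp from the start (chr5:148120801-148121200, 8 CpGs), went from 33.2% to 13.2%, and in ISCs, where it was not called, from 29.8% to 17.5%.

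Klf5, on chromosome 14 from 99697910 to 99712624, had an unmethylated promoter in every library, at 0.240% to 0.481%. The methylation that was lost lay at the far edge of the unmethylated stretch, in intron 3, and around -4110 bp from the start. In intron 3 the 3 bins at chr14:99709201-99709800 (15 CpGs) went from 43.9% of 426 calls to 15.3% of 426 in ISCs and from 41.1% of 530 to 10.3% of 456 in differentiated cells. The bins at chr14:99707601-99708200 went from 40.2% to 9.09% and from 40.4% to 7.72%. Upstream, the pair of bins at chr14:99693601-99694000 went from 40.7% to 9.55% in ISCs and from 39.2% to 6.09% in differentiated cells. The P0 libraries were above the P21 libraries at all 3 places, and there the populations stayed within 5 points of each other. Nearer the start, the called bin at chr14:99694401-99694600 (5 CpGs) went from 71.7% to 28.8% in ISCs and from 90.8% to 46.7% in differentiated cells. In this bin the populations were 19.1 points apart at P0 and 17.9 at P21, without a call between them. The body of Klf5 went from 19.8% ± 1.31 to 11.9% ± 1.05 in ISCs and from 20.6% ± 1.36 to 9.54% ± 1.07 in differentiated cells.

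At P0 the span below 20% at the Klf5 start was 8800 bp wide in ISCs and 6800 bp in differentiated cells. At P21 it was 12400 bp and 12800 bp wide. In differentiated cells at P0 it ended at 1 bin of 15 calls (chr14:99704201-99704400, 26.7%), which was not called between the ages. Over all genes the median width was 1000 bp, and 29 genes in ISCs and 20 in differentiated cells reached the width of Klf5 at P21. With a limit of 10% the Klf5 widths were 8800 bp and 6800 bp at P0, and 10200 bp and 11800 bp at P21. With 30% they were 10600 bp and 9800 bp at P0, and 12800 bp in both populations at P21. On its upstream side the Klf5 span ended at a stretch of over 1000 bp without a tested bin in every library, so its true edge there is not known. The widths of the Gata4 span (6200 bp) and of the Gata6 span (7800 bp, its downstream side ending at such a stretch) were the same in all 4 libraries, but that of Gata4 rested on the limit (2200 to 6000 bp with a limit of 10%, 8600 to 12000 bp with 30%). Cdx1 had 4800 bp at P0 and 5200 bp at P21 in both populations, Cdx2 3600 bp in ISCs at P0 and 4200 bp in the other 3 libraries, and Hnf4g none at its main start.

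**Figure D3:**
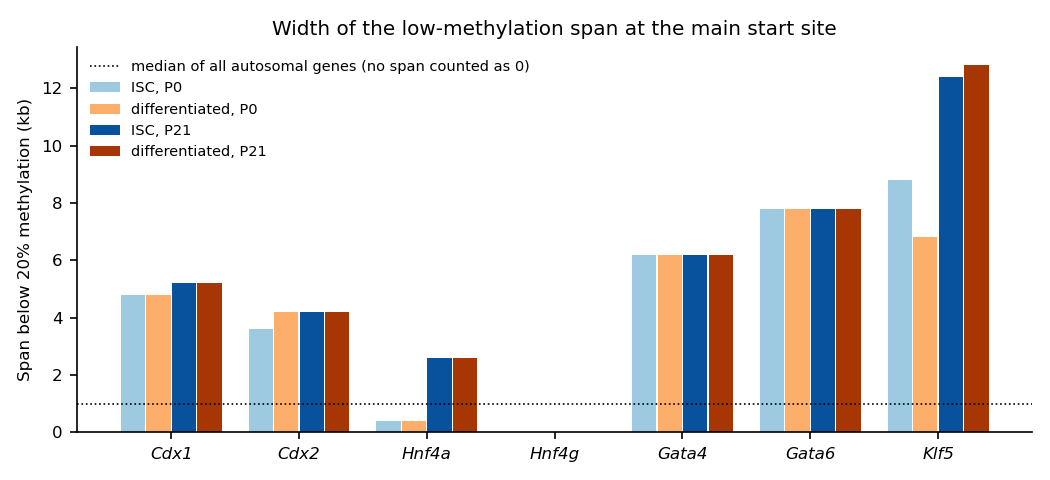
Width in kb of the run of tested bins below 20% methylation at each gene's main start site, in each of the 4 libraries. The dotted line is the median over 21410 autosomal protein-coding genes, 1 kb. The bars of Hnf4a and Klf5 are wider at P21 than at P0, and those of Gata4 and Gata6 have 1 width in all libraries.

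Cdx1, on chromosome 18 from 61178516 to 61195853, was low at its promoter and lower at P21: 3.21% ± 1.27 and 3.94% ± 1.40 at P0, 0.665% ± 0.731 and 0.468% ± 0.519 at P21, in ISCs and differentiated cells. Within intron 1, a pair of bins 4453 bp from the start (61191201 to 61191600, 7 CpGs) went from 59.4% (51.8 to 66.6) to 25% (19.1 to 32.1) in ISCs and from 58.1% (52.0 to 63.9) to 9.01% (5.84 to 13.6) in differentiated cells. Set against ISCs, differentiated cells differed by -1.32 points at P0 and by -16.0 points at P21. A bin nearer the start, at 61192201, was also lower, from 39.5% to 4.92% in ISCs and from 47.1% to 2.90% in differentiated cells. Over 51 bins the body of Cdx1 went from 50.2% ± 1.52 to 40.5% ± 1.37 in ISCs and from 47.8% ± 1.19 to 38.3% ± 1.28 in differentiated cells. The body levels of Cdx1, Cdx2 and Klf5 at P21 (6.98% to 40.5%) were far under the median of 17471 genes, 80.3% in ISCs and 79.8% in differentiated cells.

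Gata6, on chromosome 18 from 11052508 to 11085633, lay below 20% from 4507 bp before its start to 3293 bp after it in all libraries, and its promoter stood between 0.264% and 0.396% in all libraries. Its body went from 58.4% ± 1.18 to 53.5% ± 1.25 in ISCs and from 56.6% ± 1.15 to 53.5% ± 1.26 in differentiated cells. The 4 bins lower in ISCs were single bins upstream and in intron 6 and none was called in differentiated cells, whose only call was another bin of intron 6 (from 50.9% to 27.3%, with 50% and 60% in ISCs). The largest of the ISC losses, 18592 bp from the start, went from 88.9% of 54 calls to 43.5% of 23 calls, and differentiated cells from 87.2% of 47 calls to 78.6% of 42 calls.

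Gata4, on chromosome 14 from 63817759 to 63890529, also carried a promoter of low methylation: 5.39% ± 1.84 and 5.16% ± 1.42 at P0 and 6.43% ± 1.55 and 4.76% ± 1.57 at P21, in ISCs and differentiated cells. No difference between these libraries was beyond counting error. Its body stood between 42.2% and 43.0% in all 4, and its upstream starts at 63890529 between 22.1% and 26.7%. Gata4 had 3 gains (1.36% of its bins) and 1 loss (0.453%) in ISCs, against 1.07% and 1.48% of all bins. In differentiated cells it had 3 gains (1.36%) and 5 losses (2.26%), against 0.992% and 1.86% of all bins. The ISC loss was the printed bin of intron 2, 27008 bp from the start, which went from 64.3% (58.0 to 70.1) to 27.7% (22.0 to 34.3) in ISCs and from 56.2% (50.6 to 61.6) to 27.4% (21.9 to 33.8) in differentiated cells, in which the bin beside it was called as well (51.9% to 23.2% over both bins). Of the other losses in differentiated cells, the bin 31808 bp from the start went from 91.1% to 56.4%, with 91.2% and 82.1% in ISCs. The gain 15208 bp from the start went from 42.3% to 71.2% in differentiated cells, and from 52.3% to 81.6% in ISCs, where it was not called. In intron 1, 808 bp from the start, 1 bin of 9 CpGs was higher at P21 in ISCs (3.98% to 19.2%), while differentiated cells were at 15.3% and 10.5% there.

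Hnf4g, on chromosome 3 from 3508030 to 3659775, has its CGI at the first annotated start, at 3508030, which was unmethylated in every library (2.67% and 3.91% at P0, 0.730% and 0.954% at P21, ISCs before differentiated cells). The transcript with the longest coding sequence starts at 3634150, where methylation was high. The only called bin of Hnf4g lay there, over exon 1 and intron 1 (chr3:3634201-3634400, 4 CpGs): ISCs were at 83.8% of 179 calls at P0 and 35.0% of 177 at P21, and differentiated cells at 53.5% of 101 and 61.6% of 86. ISCs were thus the highest library at P0 and the lowest at P21, and the differentiated libraries lay between. Of the 784 bins of Hnf4g only 95 were tested, with a median of 38 to 46 calls, and its last exon had none, so a change of its 3′ end was not detectable here.

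**Figure D4:**
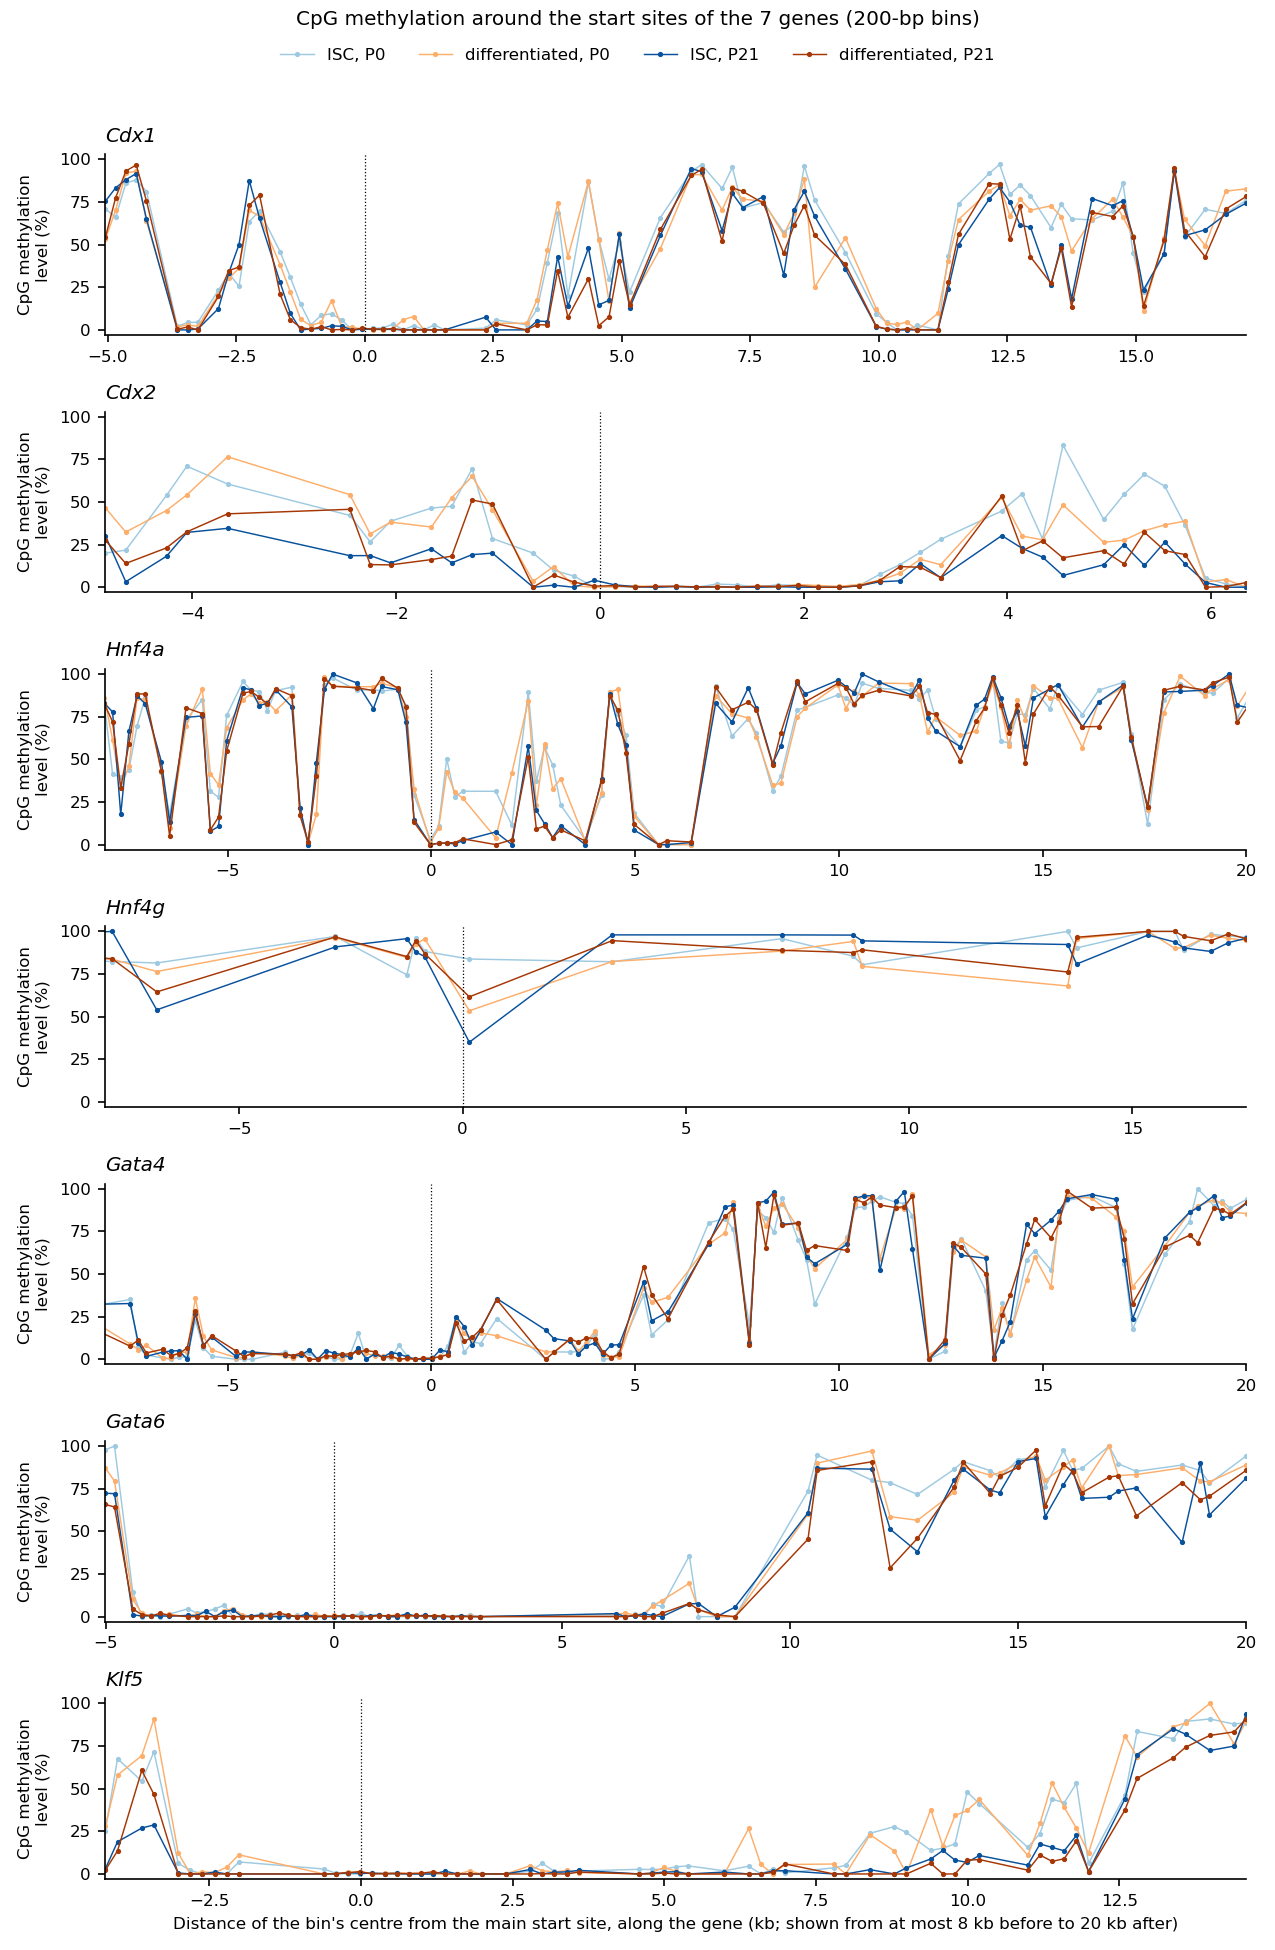
CpG methylation level (y axis, percent) of tested 200-bp bins against the distance of their centre from the main start site (x axis, kb, positive into the gene), for the 7 genes and 4 libraries. Bins far from the main start are cut off, among them most of those of Hnf4g and the printed bin of Gata4. Lines join neighbouring tested bins, and pale lines are P0 and dark lines P21. Around 0 the promoters of all genes except Hnf4a and Hnf4g lie near 0% in every library, and the dark lines fall below the pale ones in intron 1 of Cdx1 and Hnf4a, on both sides of the Cdx2 promoter and in the distal part of Klf5.

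Between ISCs and differentiated cells of the same age few bins of the 7 genes differed. At P0, 7 bins were lower in differentiated cells (0.852%, against 0.22% of all bins) and 1 was higher (0.122%, against 0.288%). At P21, 2 were lower (0.243%, against 0.111%) and 4 higher (0.487%, against 0.0711%). With bins shifted by 100 bp, 4 were lower and 4 higher at P0 (0.487% each, against 0.219% and 0.289% of all shifted bins). With so few calls these shares rest on single bins. The differences at P0 fell to Cdx2 (3 bins), Gata4 (3), Hnf4a (1) and Hnf4g (1), and those at P21 to Cdx2 (2), Hnf4a (2), Hnf4g (1) and Gata4 (1). Cdx1, Gata6 and Klf5 had no call between the populations at either age. The comparisons at P0 and those between ages share libraries, so the bins of Cdx2 exon 3 and of Hnf4g that set ISCs apart at P0 are the same measurements as the losses of ISCs described above.

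A bin of Cdx2 exon 3 (chr5:148113401-148113600, 7 CpGs) and the Hnf4g bin were called between the populations at both ages, in opposite directions. The Cdx2 bin went from 66.3% to 12.8% in ISCs and stood at 33.2% and 32.2% in differentiated cells. In both bins the differentiated libraries of the 2 ages were within 10 points of each other and the ISC libraries moved past them. The other gain at P21 in Cdx2 was the printed upstream bin (19.1% in ISCs, 51.2% in differentiated cells). In Gata4, a bin of the last exon was at 6.67% of 15 calls in ISCs and 60% of 45 calls in differentiated cells at P0, the only gain of that age, and a bin of intron 2, 8208 bp from the start, was at 92.8% and 65.5% at P21. In intron 5 of Hnf4a, 1 bin was at 90.5% in the P0 library of ISCs and 66.2% in that of differentiated cells. In the last exon of Hnf4a, a bin at chr2:163397201-163397400 was at 67.6% and 84.1% at P0 and at 55.2% and 91.5% at P21, higher in differentiated cells at P21. Of the genes with no call, the largest differences at P0 were in bins of few calls: -51.2 points in Cdx1 (21 and 24 calls), 34.8 in Klf5 (26 and 21) and 21.1 in Gata6 (18 and 20). At P21 they were -21.9 points in Cdx1, 33.8 in Klf5 and 35.1 in Gata6. None passed the test, as the uncalled bin of Hnf4g with the largest difference between the ages of differentiated cells (48.3 points, 11 and 13 calls).

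Promoter, body and last exon followed different orders of level. At P21 in ISCs the promoters ranked from Klf5 (0.240%) and Gata6 (0.339%) over Cdx1 (0.665%), Cdx2 (2.75%) and Gata4 (6.43%) to Hnf4a (22.7%) and Hnf4g (69.4%). The first 3 did not differ beyond their counting error. These are the main starts, and the first annotated start of Hnf4g, with its CGI, was at 0.730% in ISCs at P21. The bodies ranked from Cdx2 (6.98%) over Klf5 (11.9%), Cdx1 (40.5%), Gata4 (43.0%), Gata6 (53.5%) and Hnf4a (61.7%) to Hnf4g (85.2%). The last exon was high in Hnf4a, Gata6 and Klf5 (82.4% to 88.9% in every library), lower in Cdx1 and Gata4 (62.0% to 71.7%) and lowest in Cdx2. Over the genes, the median change of the body between P0 and P21 was -4.92 points in ISCs and -3.08 in differentiated cells, where the medians of 17471 genes were -0.175 and -0.528. The median change of the promoter was -2.55 and -0.163 points, against -0.00180 and -0.115 over 20556 genes. Single promoters were lower at P21 beyond counting error in Cdx1 and Hnf4a in both populations and in Cdx2 and Hnf4g in ISCs.

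**Figure D5:**
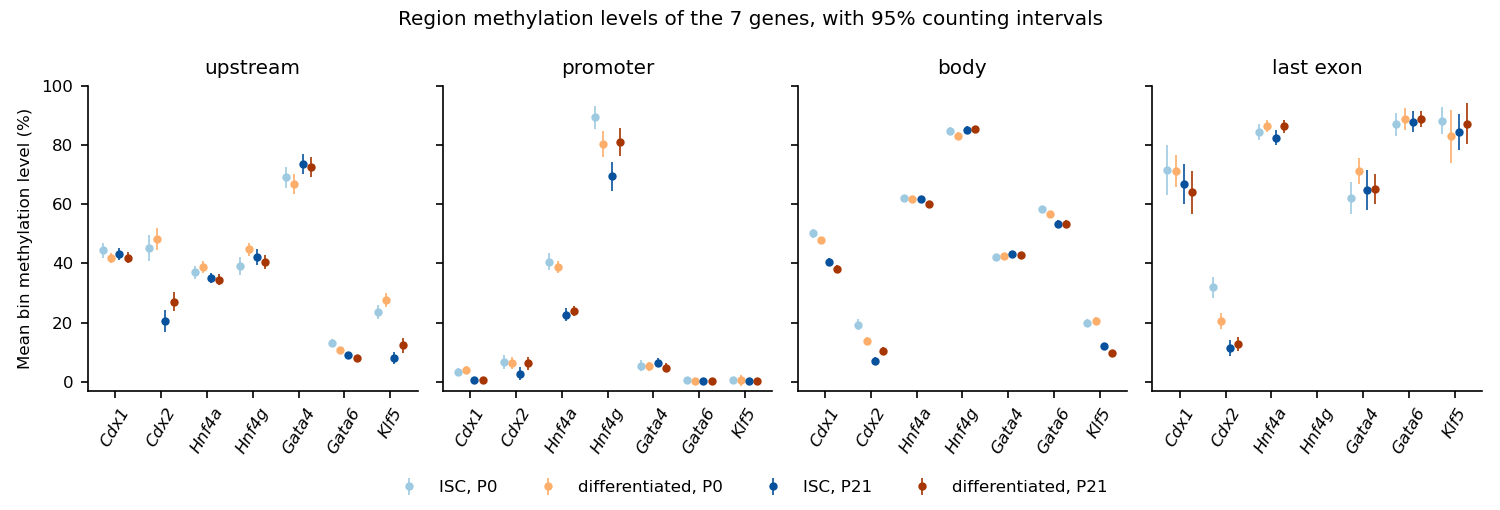
Mean level of the tested bins (y axis, percent) upstream, within 1 kb of the main start (promoter), in the body and in the last exon of the 7 genes, for the 4 libraries. Error bars are 95% counting intervals. The P21 points lie under the P0 points in the upstream region of Cdx2 and Klf5, the promoter of Hnf4a and the bodies of Cdx1, Cdx2 and Klf5, and Hnf4g has no point in the last exon.

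Other genes of the same programme were read with lists that were chosen, like the 7 genes, with earlier results of these data known. Among 18 other gut transcription factor genes (2904 bins), 127 bins were lower at P21 in ISCs (4.37%) and 87 higher (2.996%), and 150 (5.17%) and 80 (2.75%) in differentiated cells. Of all autosomal bins, 1.48% were lower and 1.07% higher in ISCs, and 1.86% and 0.992% in differentiated cells, so both directions stood above the share of all bins in this list. The vitamin D receptor gene Vdr held 51 and 58 of these losses in its 231 bins. The epithelial factor Elf3 lost methylation at 4 and 6 of 41 bins with none higher, whereas the pioneer factor genes Foxa1 and Foxa2 had 9 and 6 bins higher in ISCs and none lower. Among 14 relatives and other endoderm factors (1220 bins), losses (29 bins in ISCs, 2.38%, and 51 in differentiated cells, 4.18%) were fewer than gains (34, 2.79%) in ISCs and more than gains (37, 3.03%) in differentiated cells. Here Klf13 led the losses (10 and 19 of 170 bins), and Pdx1, the factor of duodenum and pancreas, had 9 and 12 of 49 bins higher and none lower.

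Among 18 textbook target genes of the 7 factors (1203 bins), 46 bins were lower at P21 in ISCs (3.82%) and 17 higher (1.41%), and 51 (4.24%) and 16 (1.33%) in differentiated cells. Against the same shares of all bins (1.48% and 1.07%, 1.86% and 0.992%), the losses stood further above than the gains. Slc26a3, the chloride and bicarbonate exchanger of the colon, held 15 of the ISC losses in 175 bins, and Vil1, the brush border protein villin, 14 of those in differentiated cells in 99 bins. The Slc26a3 promoter went from 29.7% to 11.9% in ISCs and from 26.5% to 10.7% in differentiated cells, and that of Vil1 from 11.3% to 1.49% and from 11.4% to 0%. The small intestinal genes Lct and Sis, the lactase and sucrase-isomaltase genes, had promoters at 62.9% to 89.0%. The promoter of Fabp2, a fatty acid-binding protein of the small intestine, went from 50.1% to 31.1% in ISCs and from 47.7% to 34.0% in differentiated cells, and that of the goblet cell gene Tff3 from 53.5% to 58.8% and from 55.5% to 56.0%. Promoters of this list thus moved both ways, and their differences were not tested. Between the populations no gene of these lists had more than 4 called bins at P0 (Tcf7l2, 4 of 649) or more than 2 at P21 (Isx, Gata3, Nr2f2 and Mttp).

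For each gene the autosomal gene nearest in 12 values (promoter, body and last exon in 4 libraries) was found among 15881 genes with all 12, by Euclidean distance in percentage points. Gata6 was nearest to Adamts1 (5.35 points), Gata4 to Cfl1 (6.97), Klf5 to Trib1 (11.2), Cdx1 to Rps19 (13.3), Cdx2 to Isl2 (13.9) and Hnf4a to Proc (15.5). Proc, the gene of the anticoagulant protein C, shared with Hnf4a a promoter that was lower at P21, at 47.9% and 36.2% at P0 and 25.2% and 21.0% at P21, and Trib1 shared with Klf5 an unmethylated promoter and a body that went from 23.2% to 12.9% in ISCs. No gene of the 7 was the nearest of another, which among 15881 genes says little of their likeness. The closest pair was Cdx1 and Gata4, 16.6 points apart, with 10 genes nearer to Cdx1 and 16 nearer to Gata4. Hnf4g has no value for the last exon and was left out.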

How the data were processed

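WGBS libraries from Lgr5-EGFP-positive ISCs and EpCAM-positive, EGFP-negative differentiated cells at P0 and P21 were analysed, 1 library a group. Bisulfite conversion used the EZ DNA Methylation-Direct kit, and paired-end reads were mapped to mm9 with Bismark, which the submitters' processing notes list beside Bowtie. Neither versions nor a removal of duplicate reads were stated in the sources used here. If duplicates remained, calls overstate the number of molecules, and adjusted p-values come out too small. For each CpG cytosine the authors deposited the count of calls and the count of methylated calls. The deposited fraction is their ratio and was not used. Between 0.465% and 0.850% of positions matched no CpG of mm9 and were dropped.

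Calls of the 2 strands were joined per CpG and added over 200-bp bins. A bin was tested when it had at least 2 CpGs and 10 calls in all 4 libraries and lay on an autosome (4076373 bins). Fisher's exact test (two-sided) was applied to each bin with Benjamini-Hochberg adjustment over all bins of a comparison, and was tested on simulated data. The level of a region is the mean of its bin levels, and its 95% error was summed from the binomial variances of the bins after adding 2 calls on each side. Intervals of bins and runs are Wilson intervals. The promoter was 1 kb on either side of the start of the transcript with the longest coding sequence, the last exon that of the same transcript, the upstream region the 5 kb before the outermost start, and the body the rest. The low-methylation span joined neighbouring tested bins below 20% with gaps of at most 1000 bp. Named for each gene and comparison were the longest run of called bins, ties going to the larger difference (with no call, the bin of largest difference), for each list the gene with most called bins, and for each gene its nearest gene. Other bins, genes and single CpGs named were chosen after their values were seen. The 7 genes and the lists were chosen with earlier results of these data known. Python 3.11.15, numpy 2.4.6, scipy 1.17.1 and numba 0.67.0 were used.

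Alternatives were minima of 20 and 40 calls, of 1 and 4 CpGs, a 30-point difference, a 15-point difference without a test, bins shifted by 100 bp, calls thinned to the lowest library, and chromosome X in the adjustment. For region changes they were pooled calls, the mean of CpG levels and a promoter of 500 bp on either side, and for spans limits of 10% and 30%.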

Additional observations from a re-analysis of the deposited data

Results flagged for a closer look

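At 2 of the genes the difference between differentiated cells and ISCs had opposite directions at P0 and P21, each time with counting intervals that left out 0. With 1 library a group the change of direction itself was not tested. The body of Cdx2 was at -5.58 points (differentiated cells minus ISCs) at P0 and at 3.46 at P21, and its bin in exon 3 at chr5:148113401-148113600 at -33.1 and 19.4 points. The promoter region of Hnf4g was at -8.86 points at P0 and at 11.7 at P21, and its bin at chr3:3634201-3634400, 1 of the 3 bins of that region, at -30.3 and 26.6 points.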

How the results depend on the processing

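No paired analysis was possible because each group has 1 library, and for the same reason no library could be left out. Calls in either direction were 55 in ISCs and 54 in differentiated cells between the ages, 8 between the populations at P0 and 6 at P21. Losses outnumbered gains between the ages under all 9 alternatives in both populations, and did so over all autosomal bins as well. With a minimum difference of 30 points the calls were 27 in ISCs (3 gains, 24 losses), 22 in differentiated cells (0 gains, 22 losses), 3 at P0 and 2 at P21. The losses were then 2.92% of bins in ISCs (0.80% of all bins) and 2.68% in differentiated cells (0.811%). The gains were 0.365% in ISCs (0.414% of all bins) and 0% in differentiated cells (0.249%). With 15 points and no test they were 147 (41 gains, 106 losses), 119 (28 gains, 91 losses), 87 and 70. With calls thinned to the lowest library, gains in ISCs were 4, calls in differentiated cells 33 (1 gain), and those between the populations 2 at P0 and 1 at P21, with 35 losses left in ISCs and 32 in differentiated cells. These losses were 4.26% of bins in ISCs (0.972% of all bins) and 3.89% in differentiated cells (0.872%). The thinned gains were 0.487% in ISCs (0.644% of all bins) and 0.122% in differentiated cells (0.386%). With at least 4 CpGs, where 403 bins were tested, calls in differentiated cells were 32 (3 gains, 29 losses). Shifting the bins by 100 bp gave 10 gains in differentiated cells, 4 gains and 4 losses between the populations at P0 (1 and 7 as reported) and 1 loss at P21 (2 as reported). The other alternatives stayed within 1.5 times of the calls summed over both directions. The single gain between the populations at P0 became 0 with at least 20 calls or 1 CpG and 2 with at least 4 CpGs, where the losses at P21 were 1. Of 624 changes of upstream regions, promoters, bodies and last exons recomputed, 558 stayed within the counting interval of the main value, 62 moved beyond it and 4 reversed. A change of sign was counted as reversed only where the interval of the main value left out 0. With pooled calls the last exon of Gata4 between the populations at P0 was -1.03 points (9.10 as a mean of bins), the upstream region of Gata6 at P0 0.0187 points (-2.56) and that of Klf5 at P21 -2.73 points (4.38). With bins shifted by 100 bp the upstream region of Gata4 between the ages in differentiated cells was -0.509 points (5.58).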
